A study of Mus musculus with 2 samples.

Results

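Hox genes encode homeodomain transcription factors that give cells their position along the head-to-tail axis of the embryo, and the HoxB cluster is a run of such genes on mouse chromosome 11. The 8 genes described here are Hoxb2, Hoxb3, Hoxb4, Hoxb5, Hoxb6, Hoxb7, Hoxb8 and Hoxb9, found by symbol among the 28692 genes of the deposited count matrices. They were chosen by measured values of these same libraries, namely the high Hoxb8 level in the cisplatin library and in cells with transcripts of Hhex, so the differences between libraries and between cells with and without Hhex are given as a description and carry no test. Tumours came from the lungs of mice of mixed strain that carry CGRPCreER/+, Rb f/f and P53 f/f alleles and the Rosa26mTmG reporter. One library held tumour cells of mice given saline, the vehicle, and the other those of mice given 5 mg/kg cisplatin every 4 days for 2 weeks. The labels also name etoposide for the treated cells at library preparation, and do not give the age, the sex or the number of mice pooled. Cre is driven from the CGRP (Calca) locus, so the model starts from Calca-expressing cells, of which the pulmonary neuroendocrine cells are the best known in the lung. Live GFP-positive cells, GFP being the reporter's colour after recombination, were sorted and 5000 cells per library were loaded on a 10x Genomics droplet chip.

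Genes at the Hoxb2 side of the cluster are switched on earlier and farther forward in the embryo than those at the Hoxb9 side, and neighbouring genes are commonly active together because chromatin opens along the cluster. Polycomb proteins keep silent Hox genes closed, trithorax proteins keep active ones open, retinoic acid and the Cdx factors help to switch them on, and Pbx and Meis proteins bind DNA with them. In the developing lung HoxB genes are best known from the mesenchyme, where Hoxb5 acts in airway branching. Hhex, a homeobox gene outside the Hox clusters, is required for somatostatin-producing delta cells of the pancreas, and it is also made in endothelial cells. Isl1, Sst, Pnoc, Ceacam10 and Sfrp5 are the other 5 of the 6 genes called delta-like here, a working name for genes seen with Hhex in these tumour cells.

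All 8 genes lie on the plus strand of chromosome 11 (GRCm38, GENCODE M21), in the order Hoxb9 (chr11:96271457-96276595), Hoxb8 (chr11:96281905-96285315), Hoxb7 (chr11:96286623-96290162), Hoxb6 (chr11:96292476-96301569), Hoxb5 (chr11:96303336-96306121), Hoxb4 (chr11:96318267-96321638), Hoxb3 (chr11:96323326-96347930) and Hoxb2 (chr11:96350525-96354012). From the start of Hoxb9 to the end of Hoxb2 they span 82556 bases. The homeobox, 180 bases that encode the DNA-binding domain, is the sequence they share. Codons 42 to 58 encode the region of the DNA-contacting helix. They are shown 5′ to 3′, with capitals at bases unlike the majority of the 8 genes. The genes shown are the gene with the highest level in both libraries and the 3 genes that differed most between the cell sets below:
Hoxb2: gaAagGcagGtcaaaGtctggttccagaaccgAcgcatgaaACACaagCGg
Hoxb6: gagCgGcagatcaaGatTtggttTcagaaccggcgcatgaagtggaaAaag
Hoxb7: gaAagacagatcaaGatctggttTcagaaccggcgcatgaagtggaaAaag
Hoxb8: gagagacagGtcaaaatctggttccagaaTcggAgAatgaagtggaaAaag
Over all 180 bases Hoxb6 and Hoxb7 were the most alike of the 28 pairs, with 88.9% identical bases, and Hoxb4 and Hoxb9 the least, with 58.9%. Hoxb7 and Hoxb8 shared 80.6%.

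Of the 8 genes, only Hoxb4 and Hoxb8 were matched in the RefSeq promoter table (GRCm38, 250 bases before to 50 after the start, plus strand). Their windows are shown for that reason, with capitals at matches on either strand to TATAAA (the TATA box), TTTATG or TTTATT (letters that Cdx and posterior Hox proteins can bind), TGATNNAT (Pbx with Hox) and AGGTCA (the core letters of a retinoid receptor site):
Hoxb8: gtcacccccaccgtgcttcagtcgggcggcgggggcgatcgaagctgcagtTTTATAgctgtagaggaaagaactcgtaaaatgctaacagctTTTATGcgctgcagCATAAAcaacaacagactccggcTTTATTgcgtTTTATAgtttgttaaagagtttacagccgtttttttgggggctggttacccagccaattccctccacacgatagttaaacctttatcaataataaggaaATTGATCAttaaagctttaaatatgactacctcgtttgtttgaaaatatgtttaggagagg
Hoxb4: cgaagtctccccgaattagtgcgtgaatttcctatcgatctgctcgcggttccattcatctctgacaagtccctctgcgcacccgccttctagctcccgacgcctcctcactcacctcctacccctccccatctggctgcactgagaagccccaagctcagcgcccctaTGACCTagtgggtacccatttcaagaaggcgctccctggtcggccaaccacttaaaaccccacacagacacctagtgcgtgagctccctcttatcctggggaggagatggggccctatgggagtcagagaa
The Hoxb8 window (chr11:96281655-96281954) held 2 TATAAA, 2 TTTATG, 1 TTTATT and 1 TGATNNAT match, none of which overlapped, and no AGGTCA. The Hoxb4 window (chr11:96318017-96318316) held 1 AGGTCA and none of the others. Of all 32851 promoters in the table, 13.6% held TATAAA, 11.9% TTTATG, 19.6% TTTATT, 8.8% TGATNNAT and 16.3% AGGTCA, and 2.81% held at least 3 TTTATG or TTTATT matches, as the Hoxb8 window did. The GC content was 42.3% in the Hoxb8 window and 58% in the Hoxb4 window, against a median of 52.7% over all promoters. A match is a string of letters and no evidence of binding.

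The cluster also holds microRNA genes, which these libraries did not measure. In mouse embryos miR-196a is known to direct cleavage of the Hoxb8 messenger RNA. Its mature RNA (RefSeq, GRCm38, chr11:96265187-96265208, plus strand; seed, bases 2 to 8, in capitals) and the complementary stretch of the Hoxb8 transcript behind its coding part (bases opposite the seed in capitals) read:
mmu-miR-196a-5p: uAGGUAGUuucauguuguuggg
Hoxb8 site: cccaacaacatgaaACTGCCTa
The Hoxb8 stretch matched the perfect complement at 21 of 22 bases, the 1 difference lying among the bases in capitals, and no transcript of the other 7 genes matched at more than 14.

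The vehicle library held 3672 barcodes with at least 500 detected genes and at most 10% mitochondrial molecules, and the cisplatin library 4218, of 3726 and 4254 deposited. The kept barcodes carried 32305146 and 28665692 unique molecules (UMIs), with medians of 8205.5 and 5940.5 per barcode. All 12 neuroendocrine markers had UMIs in both libraries, and their UMIs summed to 4219 CPM in the vehicle cells and 9015 CPM in the cisplatin cells, CPM being UMIs per 1000000 UMIs of the same cells. Rb1 had 19.7 CPM (vehicle) and 13.6 CPM (cisplatin), and Trp53 71.5 and 81.5 CPM; a 3′ tag can lie outside a deleted part, so these levels check nothing. Markers of immune, endothelial or stromal cells marked 22 vehicle and 6 cisplatin barcodes. The libraries shared 23 barcode sequences. Each condition was 1 library, so treatment, animal and library cannot be told apart; no p-value is given, and the 95% intervals (exact Poisson for CPM, exact conditional binomial for folds, Clopper-Pearson for shares) cover counting error only.

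Along the cluster the vehicle cells had transcripts mainly of its Hoxb2 side, and the cisplatin cells also of Hoxb6, Hoxb7 and Hoxb8. Levels here are CPM of the kept cells' UMIs, which count molecules by 3′ tags and are not divided by gene length. Per kilobase of exon the order of the 8 genes was the same in vehicle, and in cisplatin only Hoxb6 and Hoxb7 changed places, 4th and 5th in CPM. Summed over the 8 genes the level was 251 CPM (245 to 256) in vehicle and 401 CPM (394 to 408) in cisplatin, a ratio of 1.60 (1.55 to 1.65). Markers of other cells also set the libraries apart. The 5 erythroid markers summed to 53.7 CPM (vehicle) and 0.733 CPM (cisplatin). The 4 pan-leukocyte markers summed to 77.0 and 38.8 CPM, and the 6 fibroblast markers to 42.9 and 20.6 CPM. The fibroblast sums rest mainly on Dcn. Among vehicle cells without Hhex UMIs Dcn made 1353 of 1359 fibroblast UMIs, with Col1a1 and Lum at 0. Among such cisplatin cells Dcn made 345 of 356. The part of all these markers in the HoxB levels was not tested.

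**Figure D1:**
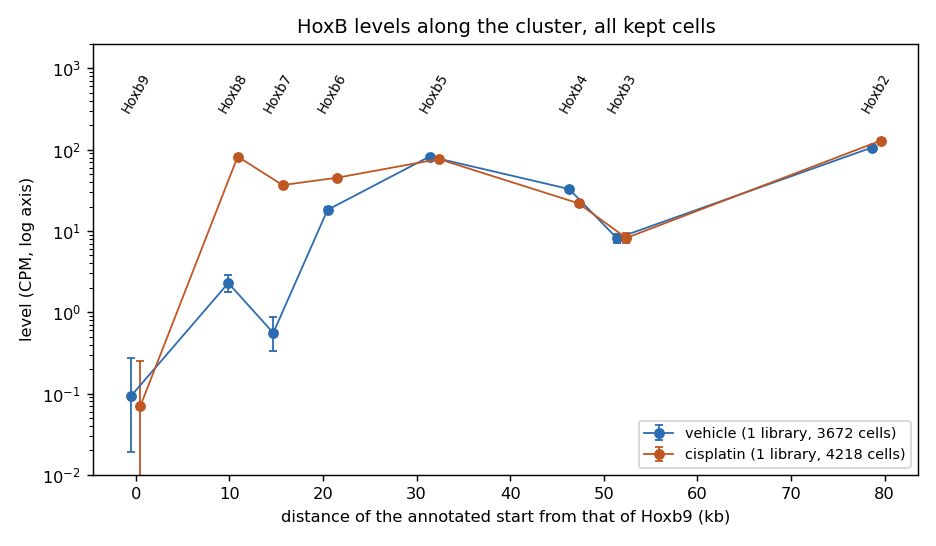
Level of each of the 8 HoxB genes in CPM (log axis) against the distance of its annotated start from that of Hoxb9 in kilobases, for the vehicle and cisplatin libraries; bars are exact 95% Poisson intervals. The libraries lie close together from Hoxb5 to Hoxb2 and are farthest apart at Hoxb7 (0.557 and 36.7 CPM) and Hoxb8 (2.29 and 82.4 CPM), while Hoxb9 is near the floor in both.

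Hoxb2, which acts in hindbrain and facial nerve patterning, had the highest level of the 8 genes in both libraries, at 106 CPM (102 to 109.6) in vehicle and 129.7 CPM (126 to 134) in cisplatin, a ratio of 1.22 (1.17 to 1.28). Hoxb3, also a hindbrain and neck patterning gene, was low in both, at 8.14 CPM (7.19 to 9.19) and 8.20 CPM (7.18 to 9.32), and its ratio of 1.01 (0.841 to 1.21) includes equality. An antisense RNA, Hoxb3os, overlaps all of the last 500 exon bases of Hoxb2 and 493 of the last 500 of Hoxb3, and whether counting used the strand is not given in the sources used here, so molecules of these 3 genes may not be told apart.

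Hoxb4, known for its role in blood stem cell expansion, stood at 32.8 CPM (30.9 to 34.8) in the vehicle cells and 21.9 CPM (20.2 to 23.7) in cisplatin, 0.667 times as high (0.603 to 0.736). Hoxb5, the lung branching gene, had 82.5 CPM (79.4 to 85.7) in vehicle and 76.7 CPM (73.5 to 80.0) in cisplatin, a ratio of 0.930 (0.878 to 0.984). Both were thus lower in the cisplatin library on this scale. The Hoxb5 ratio turned above 1 and the Hoxb4 ratio fell short of 1.5-fold when the libraries were scaled by TMM or median of ratios, which moved the median log2 ratio of all genes from -0.16 to -0.02 or 0.00; the Hoxb3 ratio stayed on the higher side there and was lower in cells of 5000 to 10000 UMIs (log2 -0.16 to 0.17).

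Hoxb6, which is expressed in the trunk mesoderm, stood at 18.2 CPM (16.8 to 19.8) in the vehicle cells and 45.2 CPM (42.8 to 47.8) in the cisplatin cells, a ratio of 2.48 (2.25 to 2.74). Hoxb7, known from the nephric duct and ureteric bud, had 18 UMIs in the vehicle library (0.557 CPM, 0.330 to 0.881) and 1052 in the cisplatin library (36.7 CPM, 34.5 to 39.0), a ratio of 65.9 (41.5 to 112). Hoxb8, whose loss in mice causes excessive grooming and whose forced expression immortalises myeloid progenitors, had 74 UMIs in vehicle (2.29 CPM, 1.80 to 2.88) and 2361 in cisplatin (82.4 CPM, 79.1 to 85.8), a ratio of 36.0 (28.5 to 46.0). These adjacent genes were the 3 whose level was at least 1.5-fold higher in cisplatin. Hoxb9, the next gene along the chromosome and a rib patterning gene, had 3 UMIs in vehicle and 2 in cisplatin, about the 3 counts taken as the limit for a count of 0. The step from Hoxb8 to Hoxb9 was therefore the sharpest along the cluster in the cisplatin library.

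Of the 8 genes, 7 had at least 50 UMIs over both libraries and count as measured; Hoxb9 did not. At least 1.5-fold higher in cisplatin were 3 of the 7, where 8.09% of all 13446 measured genes were, and at least 1.5-fold lower was 1, Hoxb4, where 21.7% of all genes were. The median log2 ratio (with 1 CPM added) was 0.29 over the 7 genes and -0.16 over all measured genes. By size of log2 ratio Hoxb8 ranked 6th and Hoxb7 8th of all measured genes and Hoxb6 232nd. The choice of the genes used this comparison, so nothing is read from these counts.

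The share of cells with at least 1 UMI was compared after each barcode was thinned to 3000 UMIs, which left out 146 vehicle and 361 cisplatin barcodes. Hoxb8 then had a UMI in 0.340% of vehicle and 13% of cisplatin cells (0.708% and 18.3% unthinned), and Hoxb7 in 0.142% and 6.77% (0.408% and 12.7% unthinned). Hoxb2 had one in 22.6% and 27.0% (39.8% and 42.3% unthinned), and Hoxb5 in 18.9% and 16.6% (35.0% and 28.7% unthinned). The difference in Hoxb8 and Hoxb7 was thus one of many more cells with a molecule, and the shares of Hoxb2 and Hoxb5 differed far less. A UMI of any of the 8 genes was found in 38.7% (37.1 to 40.4) of thinned vehicle cells and 48.3% (46.7 to 49.9) of thinned cisplatin cells. Barcodes marked for another cell type were also looked at for Hoxb8. They cannot measure free RNA in droplets, because no doublet caller was run and a marked barcode may also hold a tumour cell. In vehicle 0 of 22 held a Hoxb8 UMI (median depth 5596.5), which allows a share of up to 13.6% by the limit of 3 counts (Clopper-Pearson 15.4%). In cisplatin 3 of 6 did (median depth 5727.0). The interval of the cisplatin share was 11.8 to 88.2%, and the background share of Hoxb8 was not determined.

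At least 1 Hhex UMI was found in 52 vehicle cells (1.42%, 1.06 to 1.85) and 911 cisplatin cells (21.6%, 20.4 to 22.9). In the cisplatin library the ratio of levels in cells with Hhex over cells without was largest, among the 8 HoxB genes, at Hoxb7 and Hoxb8. The sum of the 8 genes was 242 CPM in the 3307 cells without Hhex UMIs and 828 CPM (807 to 848) in the 911 cells with them, a ratio of 3.41 (3.29 to 3.54). The cells with Hhex were deeper, with a median of 7924.0 UMIs against 5526.0. Cycling transcripts, at least 2 UMIs over 10 mitotic genes, were found in 62.8% of them against 52.0%. These 2 shares used unthinned counts, and the part of depth in them was not tested.

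Hoxb8 had 13.9 CPM in cisplatin cells without Hhex and 267 CPM in those with it, a ratio of 19.2 (16.9 to 21.7). Hoxb7 had 6.46 and 118 CPM, a ratio of 18.3 (15.3 to 22.1). Both ratios depended on how the cells were set apart: on the log2 scale Hoxb8 was at 4.17, at 2.97 with Hhex called on thinned counts and at 5.43 with at least 3 of the 6 delta-like genes, and Hoxb7 at 4, 2.99 and 5.10. Hoxb6 had 18.9 and 116 CPM, a ratio of 6.15 (5.46 to 6.94). The ratios of the genes nearer to Hoxb2 were all below these. Hoxb5 had 59.5 and 123 CPM, a ratio of 2.07 (1.90 to 2.25). Hoxb4 had 14.7 and 41.1 CPM, a ratio of 2.79 (2.38 to 3.27). Hoxb3 had 6.27 and 13.4 CPM, a ratio of 2.14 (1.64 to 2.79). The Hoxb4 interval lies above that of Hoxb5, and the Hoxb3 interval overlaps both. Hoxb2 stood at 123 and 149 CPM, a ratio of 1.21 (1.13 to 1.30), and Hoxb9 had 2 UMIs in cells without Hhex and 0 in cells with it.

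At least 1.5-fold higher with Hhex were 6 of the 7 measured genes, where 10.2% of all 12219 measured genes were, and none of the 7 was 1.5-fold lower, where 13.9% of all genes were. The median log2 ratio was 1.42 over the 7 and -0.07 over all. Hoxb8 ranked 6th, Hoxb7 9th and Hoxb6 108th by size. In cells thinned to 3000 UMIs Hoxb8 was found in 2.84% of cells without Hhex and 48.1% of cells with it, Hoxb7 in 1.34% and 25.4%, Hoxb6 in 4.82% and 25%, Hoxb5 in 13.8% and 26.4%, and Hoxb2 in 25.5% and 32.2%.

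**Figure D2:**
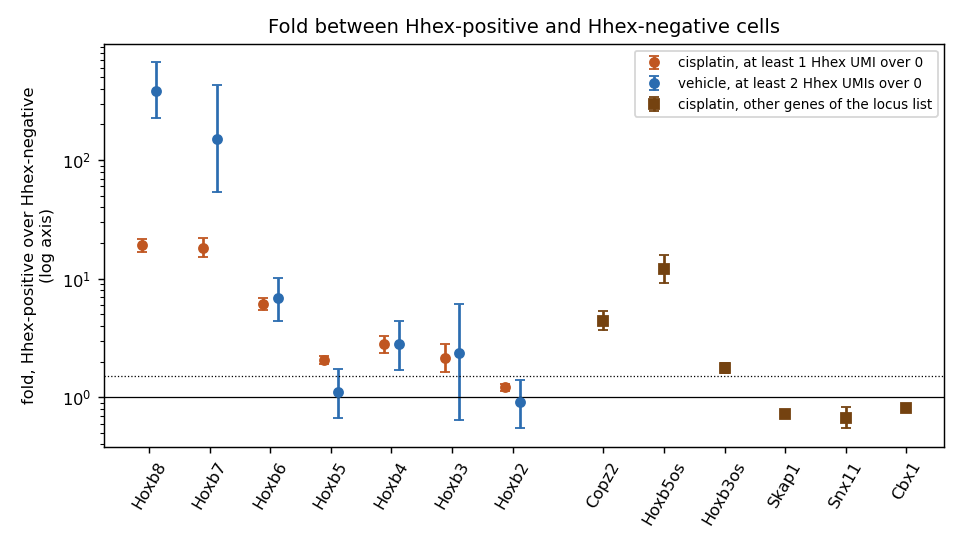
Ratio of levels (log axis) for the HoxB genes and their neighbours between cells with and without Hhex UMIs, in cisplatin (1 or more Hhex UMIs over 0) and in vehicle (2 or more over 0), with exact 95% intervals; the dotted line marks 1.5-fold. In cisplatin the ratio is 19.2 at Hoxb8, 18.3 at Hoxb7 and 1.21 at Hoxb2, and in vehicle 383 at Hoxb8 and 0.907 at Hoxb2.

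The level followed the number of Hhex UMIs up to 2 per cell and changed little beyond. In cisplatin cells with 0, 1, 2, 3 to 5 and 6 or more Hhex UMIs, Hoxb8 stood at 13.9, 129, 319, 349.6 and 325 CPM. Hoxb7 in the same order had 6.46, 50.9, 129, 148 and 163 CPM. Hoxb6 had 18.9, 58.8, 141, 132 and 157 CPM. All 3 genes thus had most of their difference between 0 and 2 Hhex UMIs. Hoxb5 was at 59.5, 90.4, 124, 148 and 137 CPM, and Hoxb4 at 14.7, 23.3, 51.4, 49.5 and 49.2 CPM. Hoxb2 had 123, 134, 183, 147 and 153 CPM, a smaller difference over the same sets. The sets held 3307, 330, 129, 241 and 211 cells.

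**Figure D3:**
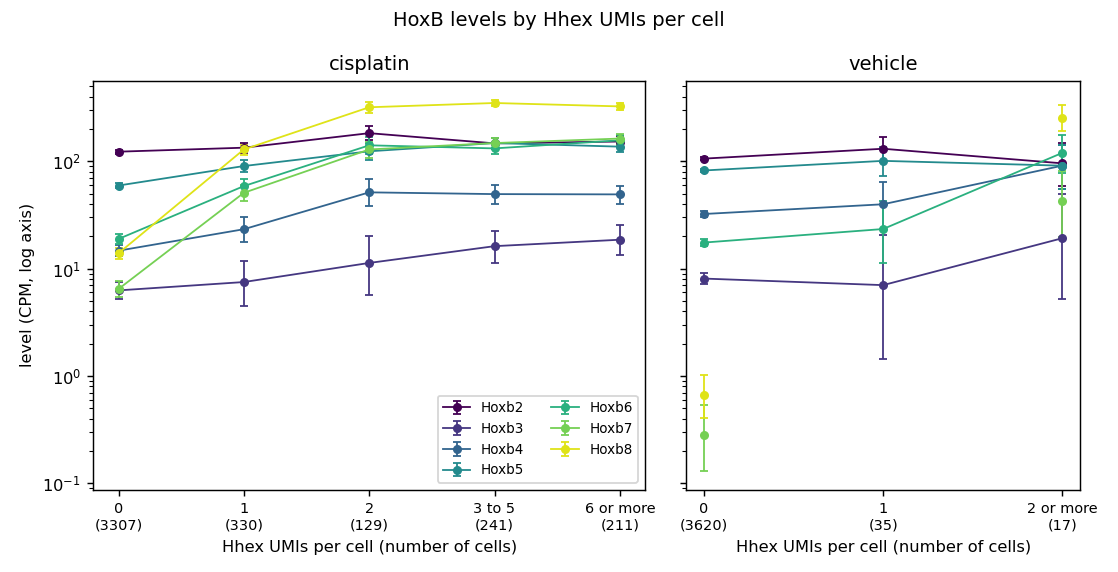
Level of 7 HoxB genes in CPM (log axis) by the number of Hhex UMIs in a cell, with cisplatin on one panel (0, 1, 2, 3 to 5, 6 or more) and vehicle on the other (0, 1, 2 or more); bars are exact 95% Poisson intervals, and genes with 0 UMIs in a set are not drawn there. In cisplatin Hoxb8 lies at 13.9 CPM without Hhex and at 319 CPM or above from 2 Hhex UMIs on, and in vehicle it lies at 0.663 CPM without Hhex and 254 CPM with 2 or more.

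Among the 581 cisplatin cells with 2 or more Hhex UMIs Hoxb8 was found in 87.8% (84.8 to 90.3), Hoxb7 in 64.4% and any of the 8 genes in 97.4%, at a median depth of 8386.0 UMIs. Hoxb9 remained at 0 UMIs in these cells (upper limit of the interval 0.706 CPM). Their summed level was 989 CPM (963 to 1017), 4.08 times that of cells without Hhex (3.93 to 4.24).

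The vehicle library held few cells with both Hhex and Hoxb8. In the 17 vehicle cells with 2 or more Hhex UMIs Hoxb8 had 53 UMIs (254 CPM, 190.3 to 332) and was found in 14 of 17 cells (82.4%, 56.6 to 96.2), against 21 UMIs (0.663 CPM) in the 3620 vehicle cells without Hhex. Hoxb7 had 9 UMIs in those 17 cells (43.1 CPM, 19.7 to 81.9) and 9 UMIs (0.284 CPM) in the 3620 others. Hoxb6 was at 119.8 CPM (77.5 to 177) and 17.5 CPM, a ratio of 6.85 (4.39 to 10.2), and Hoxb4 at 91.1 CPM (54.8 to 142) and 32.3 CPM, a ratio of 2.82 (1.69 to 4.42). The ratios of Hoxb2, 0.907 (0.553 to 1.40), and Hoxb5, 1.11 (0.666 to 1.73), include equality at this depth. The summed level was 714 CPM (604 to 838) in these cells and 247 CPM without Hhex.

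Between libraries, the cells with 2 or more Hhex UMIs were much more alike in Hoxb8 than the libraries as wholes. Cisplatin over vehicle, the ratio in these cells was 1.31 (1.000 to 1.76) for Hoxb8, 1.20 (0.808 to 1.87) for Hoxb6 and 3.49 (1.83 to 7.67) for Hoxb7. Hoxb2 was at 1.63 (1.05 to 2.68), Hoxb5 at 1.53 (0.970 to 2.55), Hoxb3 at 0.848 (0.319 to 3.18) and Hoxb4 at 0.546 (0.343 to 0.922). The intervals are wide because 17 vehicle cells stand behind each ratio.

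The 35 vehicle cells with exactly 1 Hhex UMI differed from these. They had 0 UMIs of Hoxb7 and of Hoxb8 (upper limit 8.63 CPM each), 23.4 CPM of Hoxb6 and a sum of 302 CPM. All 6 endothelial markers were present there, at a sum of 93.5 CPM (66.8 to 127), against 6.35 CPM in vehicle cells without Hhex and 4.79 CPM, 1 UMI with the other 5 markers at 0, in the 17 cells with 2 or more. In cisplatin the endothelial sum was 3.83, 4.34 and 2.68 CPM for 0, 1 and 2 or more Hhex UMIs, so this list did not rise with Hhex there. The part of endothelial cells in the vehicle value was not tested.

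In cells with 0 Hhex UMIs the libraries had nearly the same summed HoxB level, with a cisplatin over vehicle ratio of 0.982 (0.948 to 1.02), but its makeup differed. Hoxb4 was at 0.456 times (0.400 to 0.518) and Hoxb5 at 0.724 times (0.676 to 0.775) the vehicle level, and Hoxb3 at 0.775 times (0.623 to 0.961). Hoxb2 had a ratio of 1.16 (1.10 to 1.22) and Hoxb6 of 1.08 (0.947 to 1.23), and the Hoxb6 log2 ratio ran from -0.13 to 0.60 over the processing settings tried. Hoxb8 and Hoxb7 remained far higher in cisplatin, with ratios of 21 (13.5 to 34.4) and 22.7 (11.6 to 50.8). So 2 of the 7 genes were at least 1.5-fold higher, where 5.69% of all 13129 measured genes were, and 1 was 1.5-fold lower, where 20.7% were, and Hoxb4 and Hoxb5 kept their lower level in each scaling tried.

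Some cisplatin cells without a Hhex UMI carried other delta-like genes, and Hoxb8 was far higher only in those with 3 or more of them. In cisplatin cells with 0 Hhex UMIs and UMIs of 0, 1, 2 and 3 or more of the other 5 delta-like genes (1753, 1105, 323 and 126 cells), Hoxb8 had 4.90, 5.80, 7.89 and 173 CPM. Hoxb7 had 2.96, 2.16, 4.13 and 76.4 CPM, and Hoxb6 11.6, 18.3, 24.8 and 76.4 CPM. Most of the Hoxb8 level in cells without Hhex UMIs thus lay in the 126 cells with 3 or more of those genes. Hoxb5, at 54.1, 57.5, 71.4 and 93.8 CPM, and Hoxb2, at 124, 116, 135 and 122 CPM, varied far less. In the 1753 cisplatin cells with none of the 6 genes, set against the 3387 such vehicle cells, the Hoxb8 ratio was 7.55 (4.35 to 13.6; 48 and 19 UMIs) and the Hoxb7 ratio 9.62 (4.44 to 23.1; 29 and 9 UMIs). The source of these UMIs was not tested. Hoxb6 was at 0.660 times (0.534 to 0.810), Hoxb5 at 0.657 times (0.597 to 0.722) and Hoxb4 at 0.395 times (0.325 to 0.477) the vehicle level there.

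The cisplatin cells with Hhex were split by the other 5 genes in the same way. Those genes were named for being seen with Hhex, and the HoxB genes were chosen by Hoxb8 in cells with Hhex. The split is therefore a description only. In the 911 cisplatin cells with Hhex, those with UMIs of 0, 1, 2 and 3 or more of the other 5 genes (96, 95, 83 and 637 cells) had 3.22, 18.4, 158 and 340.5 CPM of Hoxb8. For Hoxb7 the levels were 1.61, 6.56, 76.5 and 150.3 CPM, and for Hoxb6 11.3, 22.3, 79.6 and 144 CPM. The 96 cells with Hhex and none of the others thus had HoxB levels like those of cells with none of the 6 genes, save for Hoxb2, which was at its highest of these 8 sets there, at 180.2 CPM (148 to 217). The Hoxb7 and Hoxb8 levels of these 96 cells rest on few UMIs. In vehicle all 53 Hoxb8 and all 9 Hoxb7 UMIs of the cells with Hhex lay in the 17 with 3 or more of the other genes.

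Cycling did not separate the levels as Hhex did. In cisplatin cells with Hhex, Hoxb8 stood at 253 CPM in those with cycling transcripts and 299.8 CPM in those without, and in cells without Hhex at 11.9 and 17.3 CPM. The 8 genes summed to 796 and 907 CPM with Hhex and to 229.9 and 264 CPM without. The level was thus somewhat lower in cycling cells of both sets.

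Because libraries and cells differ in total HoxB level, the makeup of that total was also compared. Hoxb6 to Hoxb9 supplied 8.45% of all HoxB UMIs in vehicle, where Hoxb2 alone gave 42.3% and Hoxb2 to Hoxb5 together 91.5%. In cisplatin Hoxb2 to Hoxb5 gave 59.0%. Among cells with 2 or more Hhex UMIs the Hoxb6 to Hoxb9 share was 63.5% (62.2 to 64.8) in cisplatin and 58.4% (lower bound 50%, upper 66.4%) in vehicle, and the intervals overlap. Hoxb8 alone gave 33.7% and 35.6% there and Hoxb2 15.8% and 13.4%. In cells without Hhex UMIs the Hoxb6 to Hoxb9 share was 16.2% in cisplatin and 7.51% in vehicle, and 8.98% in cisplatin cells with none of the 6 delta-like genes. With exactly 1 Hhex UMI it was 48.3% (45.5 to 51.1) in cisplatin and 7.75% (3.78 to 13.8) in vehicle. Within cells with 2 or more Hhex UMIs single genes differed too, Hoxb7 giving 15.2% in cisplatin and 6.04% in vehicle (2.80 to 11.2) and Hoxb4 5.03% and 12.8% (7.86 to 19.2).

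**Figure D4:**
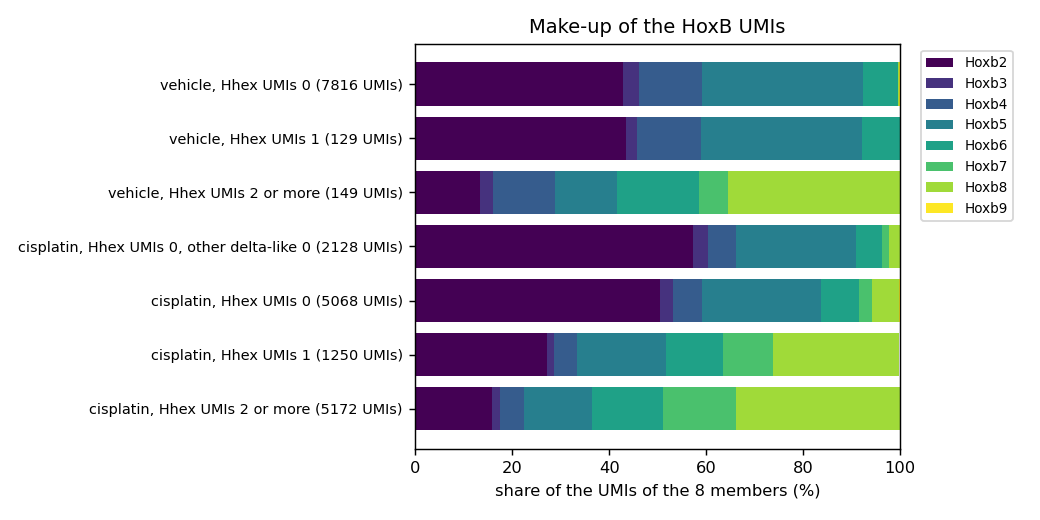
Share of each HoxB gene in the HoxB UMIs of 7 sets of cells, as stacked bars from 0 to 100%: the vehicle and cisplatin libraries split by Hhex UMIs and, for cisplatin, cells with none of the delta-like genes. Hoxb8 fills 33.7% of the bar of cisplatin cells and 35.6% of that of vehicle cells with 2 or more Hhex UMIs, and 0.269% in vehicle cells without Hhex.

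Most cells carried molecules of few HoxB genes at this depth. Thinned to 3000 UMIs, 61.7% of vehicle and 60.5% of cisplatin cells without Hhex had none of the 8 genes, and 3.60% and 2.74% had 3 or more. Of cisplatin cells with 2 or more Hhex UMIs 9.07% had none and 36.7% (32.7 to 40.8) had 3 or more. Of the 17 such vehicle cells 1 had none (5.88%) and 0 had 3 or more, which allows a share of up to 17.6% by the limit of 3 counts (Clopper-Pearson 19.5%). Over all cells 3.57% (2.99 to 4.24) of vehicle and 8.45% (7.59 to 9.37) of cisplatin cells had 3 or more.

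**Figure D5:**
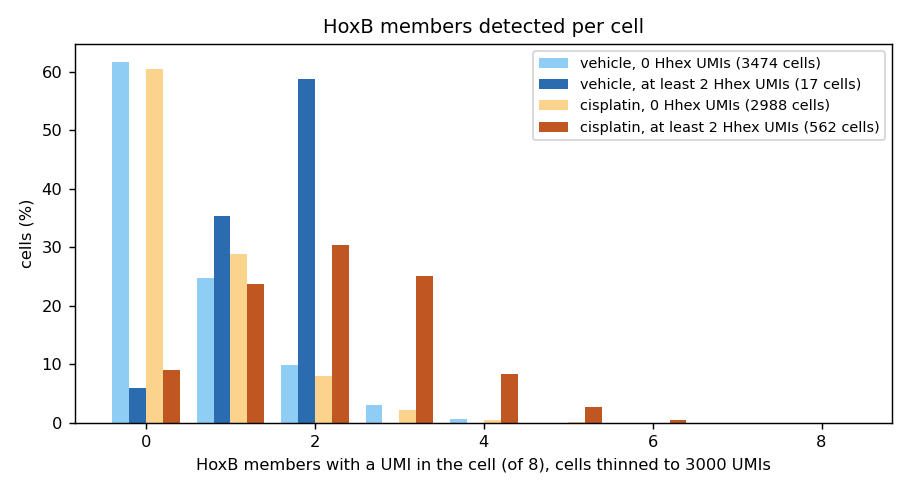
Percent of cells by the number of HoxB genes with at least 1 UMI after thinning to 3000 UMIs, for cells without Hhex and with 2 or more Hhex UMIs in each library (3474, 17, 2988 and 562 cells). Cells without Hhex peak at 0 genes in both libraries (61.7% and 60.5%), while 36.7% of cisplatin cells with 2 or more Hhex UMIs had 3 or more.

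Within thinned vehicle cells genes of the Hoxb2 side were found together: Hoxb5 had a UMI in 33.3% of cells with Hoxb2 and in 14.7% of cells without. In cisplatin cells without Hhex the shares were 21.7% and 11.1%. Hoxb7 was found in 31.4% of all cisplatin cells with Hoxb8 and 3.07% of those without. Inside the cisplatin cells with 2 or more Hhex UMIs this was nearly level, at 36.0% and 30.7%, as it was for Hoxb5 (31.7% and 29.4%) and Hoxb2 (32.6% and 34.9%), while Hoxb4 was found in 16.9% of cells with Hoxb8 and 10.1% without, and Hoxb3 in 5.23% and 3.21%. The gap in joint detection of Hoxb7 and Hoxb8 was thus smaller inside these cells than over the whole library.

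Read the other way, 772 cisplatin cells had a Hoxb8 UMI, and 621 of them (80.4%, 77.5 to 83.2) also had Hhex. Of the other 151, 59 had at least 3 of the other 5 delta-like genes and 42 had none of them. Of the 534 cells with Hoxb7, 81.5% had Hhex, and of the 446 with both Hoxb7 and Hoxb8 89.5% did, with 1 of the rest lacking all 6 genes. Of the 1785 cells with Hoxb2, by contrast, 29.7% had Hhex, as did 21.6% of all cells of the library. In vehicle 14 of 26 cells with Hoxb8 (53.8%) and 7 of 7 with both genes had Hhex.

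The genes whose level per cell was most like the HoxB sum were ranked by Pearson's r of log(1 + UMIs per 10000) over the 4218 cisplatin cells, which share 1 library and their depths. They were Pcsk2, a prohormone convertase (0.58), Scg2, a granin (0.57), Ceacam10 (0.51), Gfra4, a GDNF family coreceptor (0.50), Hhex (0.47), Sfrp5, a secreted Wnt antagonist (0.47), Ctsz, a cathepsin (0.46), and Meg3, an imprinted long RNA (0.45). For Hoxb8 alone Pcsk2 (0.77), Scg2 and Ceacam10 (0.74 each) led, and for Hoxb7 Pcsk2 and Hoxb8 (0.61 each). Hoxb2 was most like Hoxb3os (0.29) and Hoxb5 (0.21) and had 0.09 with Hoxb8. Hoxb3os overlaps the end of Hoxb2, so these 2 may share molecules if counting ignored the strand. Among pairs of the 8 genes Hoxb7 with Hoxb8 (0.61), Hoxb6 with Hoxb8 (0.49) and Hoxb6 with Hoxb7 (0.44) were highest. In the 3672 vehicle cells the sum was most like Clca3b (0.49), Cxcl13, a chemokine (0.48), and Scg2 (0.41), Hoxb5 was like Cxcl13 (0.41), Clca3b (0.39) and Hoxb2 (0.38), and Hoxb8 was like Sst (0.64) and Hhex (0.63). The ranking for the sum therefore differed between the libraries, while Hoxb8 had a delta-like gene among its first 3 in both. The delta-like genes were named for being seen with Hhex, and the HoxB genes were chosen by Hoxb8 in cells with Hhex. Nothing is therefore read from the Hoxb8 ranking, and in vehicle 26 cells with a Hoxb8 UMI stand behind it.

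Of 16 neighbours and other transcripts of the locus, 9 were measured. At least 1.5-fold higher in cisplatin were 3 of the 9, Hoxb3os, Hoxb5os and Copz2 (8.09% of all genes), and the same 3 were higher with Hhex (10.2% of all genes). Hoxb5os is an antisense RNA gene on the minus strand (chr11:96291024-96306910) that spans both Hoxb5 and Hoxb6. It had 3.84 CPM in vehicle and 13.1 CPM in cisplatin (3.42-fold, 2.78 to 4.22). In cisplatin cells without and with Hhex it had 3.30 and 39.6 CPM (12-fold, 9.20 to 15.8). In the 17 vehicle cells with 2 or more Hhex UMIs Hoxb5os stood at 67.1 CPM (36.7 to 113). It shares 100 exon bases with Hoxb5 but none of the last 500. Hoxb3os was at 40.2 and 61.1 CPM in the libraries (1.52-fold, 1.41 to 1.63) and at 50.5 and 89.7 CPM by Hhex (1.78-fold, 1.61 to 1.96).

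Copz2, which encodes a subunit of coat protein complex I and lies beyond the HoxB cluster, had 2.75 CPM in vehicle and 16.3 CPM in cisplatin (5.93-fold, 4.72 to 7.52). By Hhex it had 8.47 and 37.5 CPM in cisplatin (4.43-fold, 3.66 to 5.37), and in cells without Hhex it was still 3.19-fold higher in cisplatin (2.45 to 4.19). Skap1, a T cell adaptor gene, went the other way, at 179 and 137 CPM in the libraries and at 148 and 108 CPM by Hhex, and Snx11, a sorting nexin, had 23.1 and 15.6 CPM by Hhex (0.675-fold, 0.548 to 0.825). Hoxb1, the hindbrain gene beside Hoxb2, had 20 and 15 UMIs, and Hoxb13, the gene at the far end of the cluster, 1 and 1. Among the 8 HoxB genes, those at least 1.5-fold higher with Hhex thus ran without a gap from Hoxb3 to Hoxb8. Outside this run Copz2 was also higher. Molecules of Hoxb3 and of the overlapping Hoxb3os may not be told apart.

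The other Hox clusters were nearly silent. Of the 29 HoxA, HoxC and HoxD genes Hoxc4 alone had the 50 UMIs to count as measured and alone reached 20, with 2 UMIs in vehicle and 96 in cisplatin (54.1-fold, 14.6 to 453). In cisplatin cells without and with Hhex it had 11 and 85 UMIs, 0.526 and 11 CPM (20.8-fold, 11.1 to 43.3). It sits in the same paralogue group as Hoxb4. At this depth no HoxA or HoxD gene was measured.

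The Pbx, Meis and related TALE proteins bind DNA with Hox proteins. Of 10 measured, 1 was at least 1.5-fold higher and 5 were lower in cisplatin cells with Hhex, with a median log2 ratio of -0.64, where 10.2% of all genes were higher and 13.9% lower. Meis1, a Hox partner in blood and leukaemia, was the higher one, at 0.813 CPM without Hhex and 12.5 CPM with it (15.4-fold, 9.12 to 27.5), and between the libraries it was 5.35-fold higher in cisplatin (3.42 to 8.70). Pbx4 had 27.7 and 9.66 CPM by Hhex (0.348-fold, 0.270 to 0.444), and Tgif1, a repressor of the family, 40.1 and 17.5 CPM (0.437-fold, 0.362 to 0.524). In the whole cisplatin library Meis1 was the 1 called gene of 10, at a median log2 ratio of -0.30 (8.09% of all genes higher and 21.7% lower). In cells without Hhex 0 of 9 passed 1.5-fold either way, where 5.69% of all genes were higher and 20.7% lower.

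Polycomb and trithorax proteins are the chromatin regulators of Hox genes. Of 19 polycomb genes 3 were at least 1.5-fold lower with Hhex and none higher, with a median of -0.17 on the log2 scale (13.9% and 10.2% of all genes). Among them were Phf19, a cofactor of the H3K27 methyltransferase complex (0.535-fold, 0.357 to 0.782), and Cbx2, a reader of that mark (0.664-fold). Between libraries 1 was higher and 6 were lower in cisplatin (median -0.37; 8.09% and 21.7% of all genes, and fewer lower calls over all genes with TMM, 1920 in place of 2912). Bmi1, of the ubiquitin ligase complex, was the higher one, at 36.5 and 56.5 CPM (1.55-fold, 1.43 to 1.67), while Cbx6 had 151 and 68.9 CPM (0.457-fold) and Phc2 31.3 and 15.5 CPM (0.495-fold). In cells without Hhex 1 was higher and 5 were lower, where 5.69% and 20.7% of all genes were. Of 11 trithorax and related genes none passed 1.5-fold by Hhex (median -0.12), where 10.2% of all genes were higher and 13.9% lower. Between libraries 1 was higher and 4 were lower (median -0.53), where 8.09% and 21.7% of all genes were. Kdm6b, an H3K27 demethylase, had 44.9 CPM in vehicle and 96.6 CPM in cisplatin (2.15-fold, 2.02 to 2.29) but 96.6 and 96.5 CPM by Hhex, and Kmt2a, a known activator of Hox genes, was at 0.552 times (0.518 to 0.588) and Kmt2b at 0.570 times the vehicle level. Among cells without Hhex the count was 1 higher and 4 lower (5.69% and 20.7% of all genes).

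Of the retinoid and Cdx genes, 13 were measured by Hhex, and 1 was at least 1.5-fold higher and 8 lower with it (median -0.91), where 10.2% and 13.9% of all genes were. Rara, a retinoic acid receptor, was the higher one, at 2.82 and 7.09 CPM (2.51-fold, 1.71 to 3.69). Enzymes that make retinoic acid were lower, Aldh1a3 at 28.4 and 9.92 CPM (0.350-fold, 0.272 to 0.444) and Aldh1a1 at 74.6 and 30.0 CPM (0.403-fold, 0.349 to 0.462). Egr2 (Krox20), an activator of Hoxb2 in the hindbrain, had 66.1 and 29.1 CPM (0.441-fold, 0.381 to 0.508). Between libraries 2 of 14 were higher and 6 lower (median -0.17), where 8.09% and 21.7% of all genes were. Rarb, itself a retinoic acid target, was at 7.58 and 15.2 CPM (2.01-fold, 1.71 to 2.35). Dhrs3 was at 18.1 and 7.60 CPM (0.420-fold, 0.358 to 0.491). In cells without Hhex 2 were higher and 5 lower, where 5.69% and 20.7% of all genes were.

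Of the islet and gut endocrine list, 1 of 16 genes was measured. Pyy, a gut hormone, had 16.5 CPM without and 230.4 CPM with Hhex in cisplatin (14.0-fold, 12.5 to 15.8). Of 11 measured neuroendocrine markers 4 were at least 1.5-fold higher with Hhex and none lower, where 10.2% and 13.9% of all genes were. Among the 4 were Scg2 (14.5-fold) and Chga (4.41-fold), both secretory granule proteins. The delta-like genes themselves, at 7.75 and 163 CPM for Isl1 and 40.3 and 787 CPM for Sst, were all higher, as their choice implies.

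Some markers of lung epithelial cells were also higher with Hhex, and others were not. The 5 alveolar type 2 markers summed to 65.6 CPM in cisplatin cells without Hhex (none at 0), 351 CPM with 1 Hhex UMI (Lamp3 at 0) and 706 CPM with 2 or more (none at 0), of which Sftpc made 36.0, 219.5 and 642 CPM. In vehicle the sums were 77.0, 72.5 and 278 CPM. Sftpa1 also rose in cisplatin, at 5.50, 24.1 and 47.2 CPM. Sftpb was high only with 1 Hhex UMI, at 2.01, 92.0 and 1.72 CPM. Abca3, the surfactant lipid transporter, went the other way in cisplatin, at 21.6, 15.4 and 15.1 CPM, and Lamp3 had 9, 0 and 2 UMIs. The 4 club cell markers summed to 462, 18808 and 349 CPM in cisplatin (Scgb3a1 at 0 in the last), with 44331 of the 46260 Scgb1a1 UMIs of the middle set in 1 barcode, and to 832, 1204 and 76.7 CPM in vehicle. Without the barcodes that held at least 3 club markers the log2 ratio of the HoxB sum by Hhex was 1.78, against 1.77 with them. Among markers of other cells, the 6 fibroblast markers summed to 17.0, 26.1 and 32.3 CPM in cisplatin cells with 0, 1 and 2 or more Hhex UMIs, of which Dcn, a secreted proteoglycan, made 16.5, 24.9 and 29.8 CPM. In the last set Col1a1, Pdgfra and Lum were at 0 and Col3a1 had 2 UMIs, and in the 17 vehicle cells with 2 or more Hhex UMIs Dcn gave 16 of 17 fibroblast UMIs (81.5 CPM). The 6 smooth muscle and pericyte markers summed to 0.383, 2.37 and 3.06 CPM in cisplatin, 16 UMIs in the last set with Tagln, Myh11 and Cspg4 at 0, and the 5 B cell markers to 1.24, 1.58 and 7.46 CPM, 31 of the last 39 UMIs being Cd79a. T cell, myeloid, pan-leukocyte, ciliated and erythroid sums in cisplatin were no higher with 2 or more Hhex UMIs than with 0. The part of the alveolar, fibroblast, smooth muscle and B cell markers in the HoxB levels was not tested.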

How the data were processed

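Single-cell RNA libraries of 1 vehicle and 1 cisplatin sample were used. The authors deposited raw UMI counts per gene and barcode, made with Cell Ranger 2.0.2 on mm10 per the submitters' processing notes. Whether counting used the strand is not given in the sources used here. Barcodes with at least 500 genes and at most 10% mitochondrial UMIs were kept, and no doublet caller was run. Counts were summed over cells and divided by their total UMIs (CPM). Shares of cells used counts thinned to 3000 UMIs per barcode, leaving out shallower ones. A cell was called positive for Hhex with at least 1 UMI. Log2 ratios added 1 CPM, genes with at least 50 UMIs over both sets were measured, and 1.5-fold was the threshold for a call. With 1 library per group there was no test. The calls were also run on simulated counts that held counting error only. That run cannot show how much single libraries differ without treatment. Python 3.11.15, numpy 2.4.6, scipy 1.17.1, pandas 2.3.3, matplotlib 3.10.9, R 4.3.3, edgeR 4.0.16 (TMM factors) and DESeq2 1.42.0 (median of ratios) were used, the last 2 for scaling alternatives only. GENCODE M21 (GRCm38) held 28339 of the 28692 gene identifiers. Sequences are RefSeq's (GRCm38) for promoters and microRNAs and GENCODE's for transcripts.

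The 8 genes and all lists were chosen with earlier results of these data known. Named beside the 8 genes were, per list, up to 4 measured genes with the largest absolute log2 ratio and any Hox gene with at least 20 UMIs, the delta-like genes, Rb1 and Trp53, and the 8 genes with the highest correlation with the summed HoxB level among genes with a UMI in at least 20 cells. Where a list had few called genes, they were named after their values were seen. Alternatives were other scalings, a pseudocount of 0.1, UMI floors of 20 and none, a 2-fold threshold, a depth band of 5000 to 10000 UMIs, thinning to 2000 UMIs or none, and other ways to set cells with Hhex apart. One allele of the mice and some genes of the lists are not reported here.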

Additional observations from a re-analysis of the deposited data

How the results depend on the processing

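No paired analysis was possible because each group was 1 library, and for the same reason no replicate could be left out. The log2 ratio of the HoxB sum between libraries, 0.68, was 0.83 with TMM, 0.86 with median-of-ratios scaling and 0.63 for cells of 5000 to 10000 UMIs. By Hhex in cisplatin it was 1.77, and 1.83 with TMM, 1.84 with median of ratios and in the same depth band, 2.02 with at least 2 Hhex UMIs, 1.64 with Hhex called on thinned counts, 1.84 with Isl1 in place of Hhex and 1.96 with at least 3 of the 6 delta-like genes. In cells without Hhex it was -0.03 between libraries, and 0.13, 0.15, 0.23 (thinned), 0.12 (Isl1) and -0.11 (3 of 6), so its sign is not settled by these data. The share of cisplatin cells with a HoxB UMI, 48.3%, was 39.7% thinned to 2000 UMIs and 61.0% unthinned. The counts of 3 and 6 genes at least 1.5-fold higher were unchanged under every alternative run. The cause of these shifts was not tested, except that thinning removes UMIs by construction.

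Leaving out barcodes of 30000 UMIs or more, those with 3 club markers, and splitting cells by other delta-like genes were chosen after seeing the data. Over all measured genes the higher and lower calls between libraries, 1088 and 2912, were 1581 and 1920 with TMM and 1688 and 1801 with median of ratios, 516 and 959 at 2-fold and 3138 and 5445 with no floor. By Hhex they were 1246 and 1697, then 1415 and 1490, 1426 and 1479, 676 and 893, and 3267 and 4437. In cells without Hhex they were 747 and 2717, then 1217 and 1726, 1294 and 1625, 272 and 802, and 2898 and 5390. The 18 Hoxb7 and 74 Hoxb8 UMIs in vehicle, and its 17 cells with 2 or more Hhex UMIs, limit the precision of every ratio against them.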
